A study of Danio rerio with 9 samples.

Results

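Among zebrafish cells sorted for a dim cd41:GFP signal, 806 of 26621 cell barcodes from 6 days post fertilization (dpf) onwards carried transcripts of at least 2 of the 4 genes s1pr4, spock3, havcr1 and ccl19a.1. A barcode entered the count when it held at least 500 unique molecular identifiers (UMIs) and 200 genes, with at most 20% of its UMIs from mitochondrial genes. The remaining 25815 barcodes of the same libraries are called the other barcodes. The barcodes were selected on the measured UMIs of the 4 genes, which were themselves chosen by their values in these libraries, so every contrast with the other barcodes is a description without a test. The rule did not gather 1 cell type. The 806 barcodes were divided, after their values were seen, into 332 with s1pr4 and spock3 alone, 133 with havcr1 but no ccl19a.1, and 341 with ccl19a.1. The s1pr4-spock3 barcodes had more cd74b, the havcr1 barcodes more of several macrophage genes, and the ccl19a.1 barcodes more of 5 germ cell genes than the other barcodes, in each library with at least 20 of them.

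The libraries came from runx1-/- and wild-type (WT) zebrafish of the EK strain, all carrying the cd41:GFP transgene, in which the cd41 promoter labels blood progenitors dimly and thrombocytes brightly. The mutants had the del8 allele of runx1 (hg96), a gene for a transcription factor needed to form blood stem cells. The groups were runx1-/- at 6 and 10 dpf, runx1-/- labelled bloodless at 16 dpf, runx1-/- labelled recovered at 16 dpf, and WT at 6, 10 and 16 dpf. Each group was 1 library of cd41:GFPlow cells made with a 10x Genomics kit that reads the 3' ends of transcripts. Both runx1-/- libraries at 16 dpf share the single WT library of that age as control, and the labels say neither how many animals a library held nor how bloodless and recovered were defined.

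s1pr4 (ENSDARG00000074851) encodes a receptor of blood cells for sphingosine 1-phosphate, a lipid that guides their movement, and spock3 (ENSDARG00000070266) encodes a testican, a proteoglycan of the extracellular matrix. havcr1 (ENSDARG00000040178) encodes a TIM family receptor that binds phosphatidylserine on dying cells, and ccl19a.1 (ENSDARG00000058389) encodes a chemokine related to mammalian CCL19, which draws lymphocytes and dendritic cells through the receptor CCR7. Class II molecules of the major histocompatibility complex (MHC) present peptides to helper T cells, and CD74, the invariant chain, escorts them through the cell.

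The 7 libraries held from 5166313 UMIs in runx1-/- at 6 dpf to 94476178 in the recovered library. Pairs of libraries shared 0 to 22 barcode sequences, and none of those met the rule in both. Transcripts of runx1 were read as 3' tags, which need not cover the deletion, so they could not check the genotype labels. itga2b, the gene for Cd41, was low: summed over barcodes and scaled to total UMIs (CPM), it reached at most 1.16 CPM in the barcodes that met the rule and at most 6.08 CPM in the others.

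The barcodes that met the rule took the largest share in the bloodless library. They were 11 of 767 barcodes (1.43%, exact 95% interval 0.718 to 2.55) in runx1-/- at 6 dpf, against 35 of 2728 (1.28%, 0.895 to 1.78) in WT at 6 dpf. At 10 dpf they were 95 of 3323 (2.86%, 2.32 to 3.48) in runx1-/-, against 21 of 2583 (0.813%, 0.504 to 1.24) in WT. At 16 dpf they were 332 of 3452 (9.62%, 8.65 to 10.7) in bloodless and 209 of 7654 (2.73%, 2.38 to 3.12) in recovered runx1-/-, against 103 of 6114 (1.68%, 1.38 to 2.04) in WT. The runx1-/- share was thus above the WT share at each age, but at 6 dpf the intervals overlapped almost completely. These intervals, and all others below, cover counting error only.

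Averaged over ages, the log2 ratio of the runx1-/- share to the WT share was 1.2. Singly, the 6 dpf pair gave 0.20 on this scale and the 10 dpf pair 1.79, while bloodless gave 2.51 and recovered 0.69 over the WT library of 16 dpf. The 4 genes were chosen in these same libraries, so no p is given for the shares.

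The kinds were mixed differently in each library. In runx1-/- at 10 dpf the s1pr4-spock3, havcr1 and ccl19a.1 barcodes numbered 37, 31 and 27, whereas WT at 10 dpf held 20, 1 and 0. In bloodless runx1-/- they numbered 139, 61 and 132 and in recovered runx1-/- 76, 27 and 106, against 25, 5 and 73 in WT at 16 dpf. At 6 dpf they were 3, 5 and 3 in runx1-/-, against 32, 3 and 0 in WT. In the WT libraries the rule therefore found almost only s1pr4-spock3 barcodes at 6 and 10 dpf and mostly ccl19a.1 barcodes at 16 dpf.

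**Figure D1:**
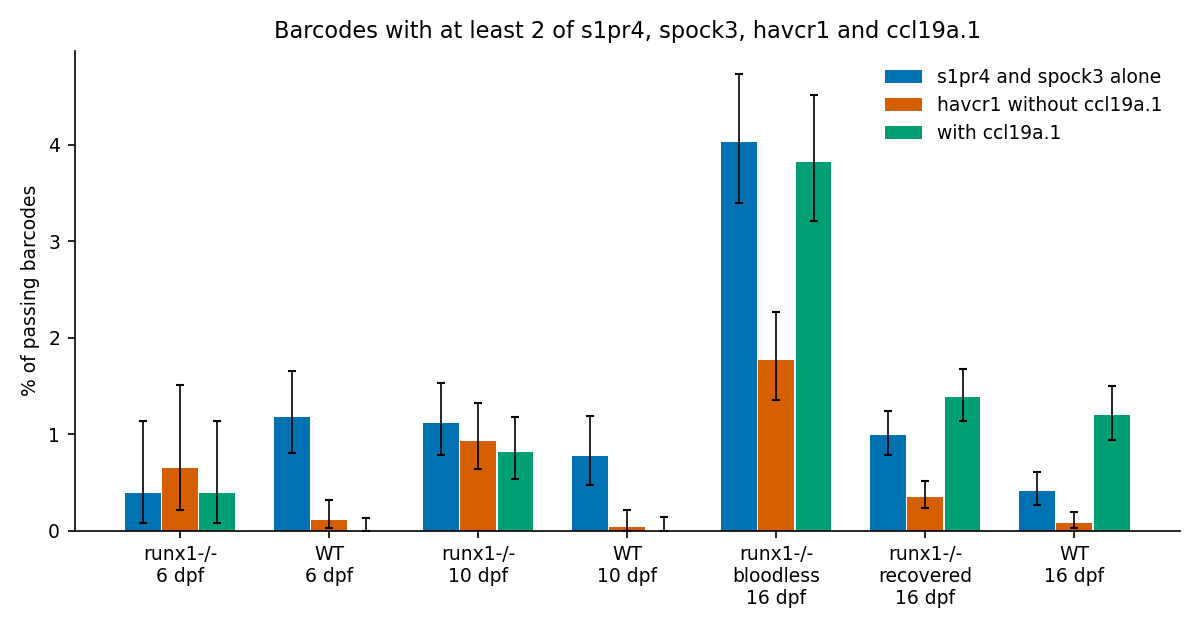
Share of the barcodes passing the filters (percent) that belonged to each of the 3 kinds in the 7 libraries, with exact 95% binomial intervals as error bars. The bloodless library had the highest share of each kind, 4.03% s1pr4-spock3, 1.77% havcr1 and 3.82% ccl19a.1 barcodes.

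Most barcodes met the rule with the fewest genes it allows. Of the 26621 barcodes, 23009 had none of the 4 genes, 2806 had 1, 728 had 2, 73 had 3 and 5 had all 4. The commonest pairs were s1pr4 with spock3 (332 barcodes) and spock3 with ccl19a.1 (255), followed by spock3 with havcr1 (73). Of the barcodes with spock3, 734 of 1563 met the rule (47.0%), close to the 341 of 770 for ccl19a.1 (44.3%). For havcr1 it was 162 of 468 (34.6%) and for s1pr4 458 of 1700 (26.9%).

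How far the 4 genes occurred together depended on the gene and the library. In runx1-/- at 10 dpf each of the 4 was commoner among barcodes that had 2 of the other 3, for example s1pr4 in 20 of 40 (50%) and in 10.3% of the rest. In recovered runx1-/- each was commoner too, with s1pr4 in 21.1% and 5.79% and spock3 in 47.2% and 5.30%. In bloodless runx1-/- spock3 was found in 24 of 33 such barcodes (72.7%) and in 18.0% of the rest, whereas havcr1 was found in 2.92% and 4.81%. In WT at 16 dpf spock3 was found in 4 of 12 and in 3.56% of the rest, whereas s1pr4 was found in 2.82% and 6.24%. In these 4 libraries the exceptions were havcr1 in bloodless and s1pr4 in WT at 16 dpf. The 6 dpf libraries and WT at 10 dpf held at most 1 barcode with 3 of the genes.

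Depth moved with the rule. The barcodes that met it had a median of 2868 UMIs in recovered runx1-/-, against 11241 in the other barcodes of that library, and 25999 in WT at 16 dpf, against 12315. By kind, the s1pr4-spock3 barcodes were shallow in bloodless and recovered runx1-/-, with medians of 2741 and 2104.5 UMIs, and had 11508 in WT at 16 dpf. The ccl19a.1 barcodes were deep at 16 dpf, with medians of 24070 in bloodless, 14683.5 in recovered and 37769 in WT.

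With every barcode thinned to 2000 UMIs and shallower ones left out, fewer barcodes met the rule. They were 41 of 2935 in runx1-/- (1.40%), against 3 of 2416 in WT (0.124%), at 10 dpf. At 16 dpf they were 104 of 3093 in bloodless (3.36%) and 52 of 6821 in recovered runx1-/- (0.762%), against 7 of 5760 in WT (0.122%). At 6 dpf they were 3 of 570 in runx1-/- (0.526%), against 1 of 2479 in WT (0.0403%). Thinning left out 16 such barcodes in runx1-/- at 10 dpf, 50 in bloodless, 73 in recovered, 3 in runx1-/- at 6 dpf and 0 in WT. At this depth the mean log2 ratio of shares was 3.42.

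**Figure D2:**
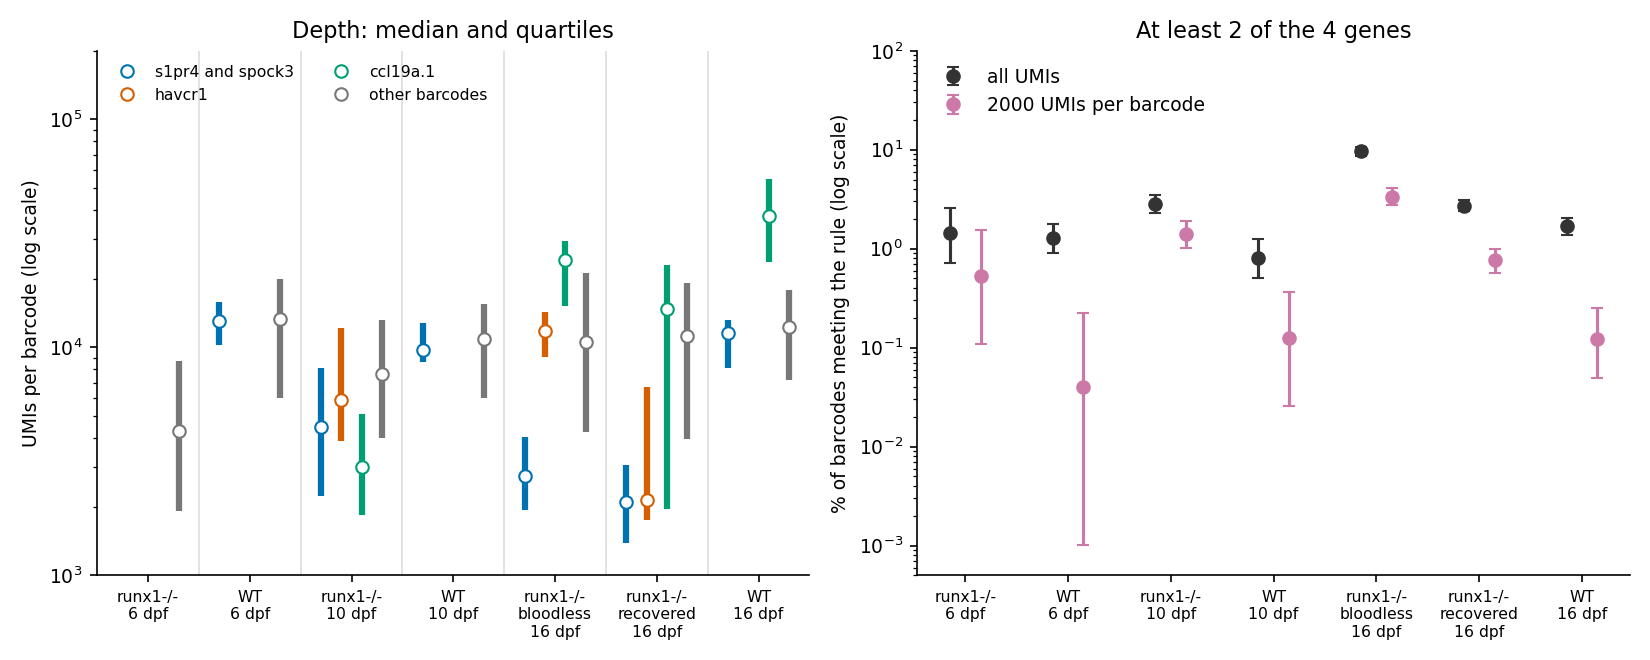
Left, median and quartiles of UMIs per barcode (log axis) for kinds with at least 20 barcodes and for the other barcodes. Right, percent of barcodes meeting the rule (log axis) at all UMIs and after thinning to 2000 UMIs, where WT at 16 dpf went to 0.122% and bloodless runx1-/- to 3.36%.

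Free RNA was gauged in barcodes with at least 10% haemoglobin UMIs, which are red cell barcodes expected to lack these genes. The rule was met by 0 of 353 such barcodes in runx1-/- at 10 dpf, which allows a share of up to 0.850% when a count of 0 is taken as up to 3 counts, by 1 of 699 in bloodless (0.143%) and by 5 of 1881 in recovered (0.266%). The remaining barcodes of the 3 libraries met it at 3.20%, 12.0% and 3.53%, although their median depth was lower, at 7021.5, 7846 and 7256 UMIs, compared with 18878, 19932 and 15582 in the haemoglobin-rich ones.

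Barcodes just inside and just outside the rule differed by kind of gene and by library. In runx1-/- at 10 dpf the 73 barcodes with 2 genes had 330 CPM cd74b and 756 CPM ddx4, and the 400 with 1 gene had 212 and 90.5 CPM. In bloodless runx1-/- the 308 barcodes with 2 genes had 168 CPM cd74b and 1541 CPM ddx4, and the 693 with 1 gene had 146 and 1304 CPM. At 16 dpf the edge of the rule thus cut through barcodes with similar levels of both genes in the bloodless library. cd74b was lower with 2 genes than with 1 in recovered runx1-/- (120 and 142 CPM), WT at 16 dpf (61.1 and 88.4) and runx1-/- at 6 dpf (9.15 and 53.7). In WT at 6 dpf (29.4 and 18.1) and at 10 dpf (143 and 77.0) it was higher with 2 genes.

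The s1pr4-spock3 barcodes carried more cd74b than the other barcodes in 6 of 6 libraries with at least 20 of them. Levels here and below are CPM of UMIs summed over the barcodes of a kind, and a log2 ratio adds 10 CPM to both sides. A gene was counted as higher or lower when its log2 ratio had 1 sign and a size of at least 1 in each such library. Measured genes had a median of 10 CPM in the kind or in the other barcodes. Some therefore entered the counts only through the side where they were high. In this kind 17 of 5595 measured genes were higher (0.304%) and 37 lower (0.661%), and the median log2 ratio of all measured genes was -0.12.

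cd74b encodes 1 of the 2 zebrafish invariant chains. It stood at 603 CPM (exact Poisson 95% interval 501 to 720) in runx1-/- at 10 dpf, 1001 (919 to 1088) in bloodless and 694 (588 to 814) in recovered runx1-/-, where the other barcodes had 117, 84.1 and 32.4 CPM. In WT it stood at 31.9 CPM (17.4 to 53.5) at 6 dpf, 154 (106 to 216) at 10 dpf and 332 (267 to 407) at 16 dpf, where the other barcodes had 9.41, 49.5 and 91.6 CPM. The median log2 ratio was 2.01, with a range of 1.11 to 4.05. The mutant libraries were the high ones, and the values in WT at 6 and 10 dpf leaned on a single barcode, which gave 50% and 63.6% of the counts.

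A transcript of cd74b was found in most barcodes of the kind from the mutant libraries at 10 dpf on and from WT at 16 dpf. It was found in 26 of 37 s1pr4-spock3 barcodes in runx1-/- at 10 dpf (70.27%), 125 of 139 in bloodless (89.9%) and 55 of 76 in recovered (72.4%), where the other barcodes had 36.5%, 24.6% and 15.1%. In WT at 16 dpf it was found in 18 of 25 (72%), where the other barcodes had 39.8%. Haemoglobin-rich barcodes had cd74b in 0.850%, 1.29% and 1.81% of cases in the 3 mutant libraries, at the greater depths given above.

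The second invariant chain gene, cd74a (ENSDARG00000009087), stood at 314 CPM in runx1-/- at 10 dpf, 638 in bloodless and 473 in recovered, where the other barcodes had 68.1, 58.9 and 25.5 CPM. The class II alpha chain gene si:busm1-266f07.2, named mhc2daa in the reference table and picked after its values were seen, stood at 589, 2673 and 1328 CPM, where the other barcodes had 121, 206 and 59.7 CPM. In WT at 6, 10 and 16 dpf it stood at 0, 28.0 and 102 CPM, where the other barcodes had 3.0, 19.5 and 70.12 CPM. The alpha chain gene stood highest in the mutant libraries, and in WT the kind and the other barcodes lay close together. Of 4 measured genes in the list of class II genes and cd74, cd74b alone was higher in each library. The summed level of the list was 43.3 to 1876 CPM in the kind and 14.5 to 200 CPM in the other barcodes, higher in 6 of 6 libraries.

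**Figure D3:**
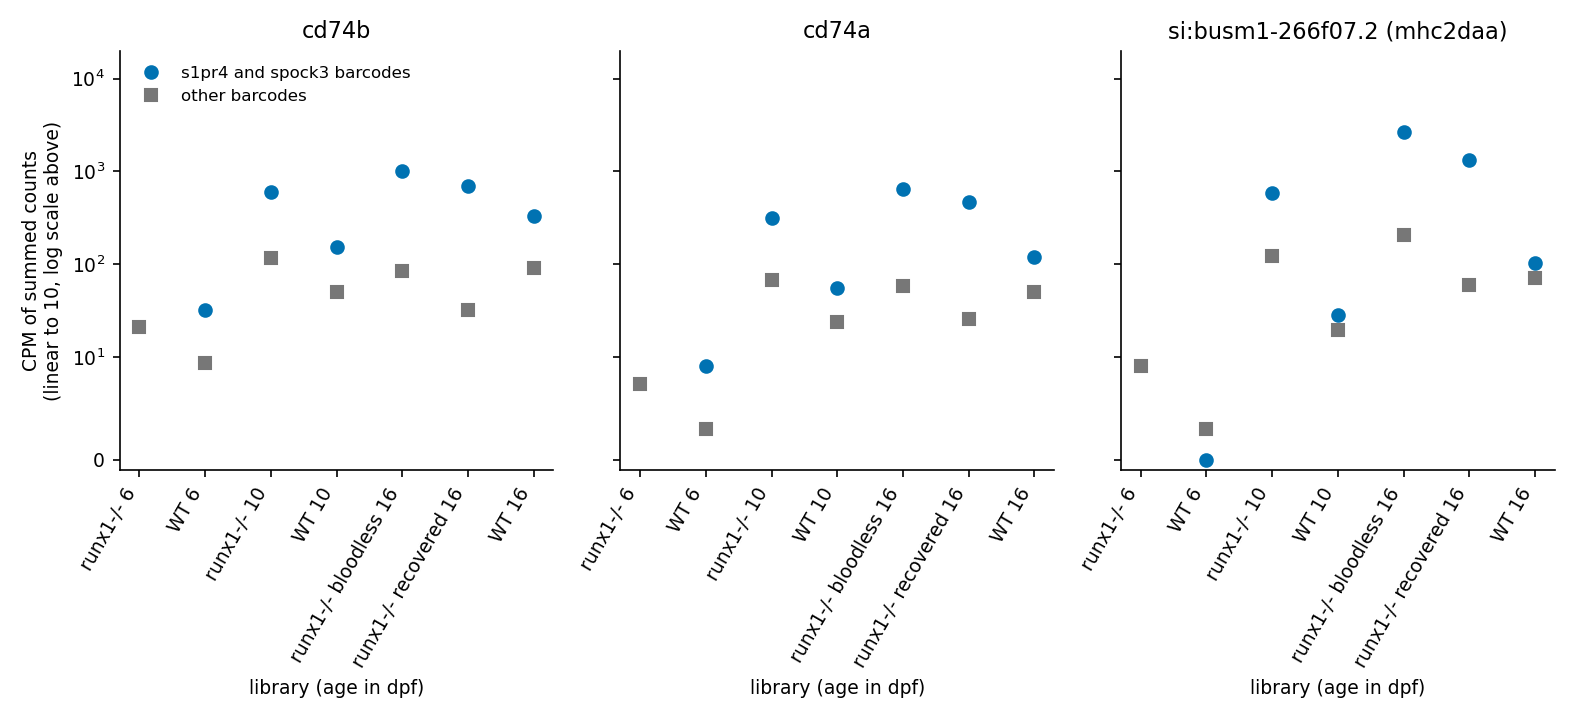
Level of cd74b, cd74a and the class II alpha chain gene mhc2daa (CPM, axis linear up to 10 and logarithmic above) in s1pr4-spock3 barcodes and in the other barcodes of each library. cd74b lay above the other barcodes in each of the 6 libraries shown for the kind, from 31.9 CPM in WT at 6 dpf to 1001 CPM in bloodless runx1-/-.

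With the markers counted at equal depth, the class II share of the kind was still above that of the other barcodes in the mutant libraries. After thinning to 2000 UMIs, at least 2 markers of the list were found in 32.3% of s1pr4-spock3 barcodes in runx1-/- at 10 dpf, 67.0% in bloodless and 36.6% in recovered, where the other barcodes had 9.98%, 12.7% and 5.10%. In WT at 16 dpf the thinned shares were 8.0% and 6.24%, whereas at full depth they were 56.0% and 26.0%. The kind itself was assigned at full depth. The thinned shares rest on 31 of 37, 100 of 139 and 41 of 76 s1pr4-spock3 barcodes in the 3 mutant libraries. In WT at 16 dpf they rest on 25 of 25.

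Genes from outside antigen presentation were also higher in this kind. hmgn3, which encodes a nucleosome-binding protein, stood at 638 CPM in runx1-/- at 10 dpf, 1400 in bloodless and 1057 in recovered, where the other barcodes had 66.4, 80.0 and 46.0 CPM. In WT at 6, 10 and 16 dpf hmgn3 stood at 150, 191 and 128 CPM, where the other barcodes had 18.9, 62.7 and 39.7 CPM. aff3, of a family of transcription elongation factors, had a median log2 ratio of 2.75, and si:ch211-1a19.3, which has no described role in the files, 3.16. gig2i, of a family induced by viruses in fish (2.56), prex1, a Rac exchange factor (2.04), capgb, an actin capping protein (1.67), and unc13d, needed to release cytotoxic granules in mammals (1.63), were also higher in each library.

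ackr3a, which encodes a scavenger receptor for the chemokine Cxcl12, was noticed after values were seen. It was found in 11 of 37 s1pr4-spock3 barcodes in runx1-/- at 10 dpf (29.7%), 46 of 139 in bloodless (33.1%) and 14 of 76 in recovered (18.4%), where the other barcodes had 1.36%, 1.57% and 0.819%. It was found in 12 of 32 in WT at 6 dpf (37.5%), where the other barcodes had 1.15%, but in 2 of 20 in WT at 10 dpf and 0 of 25 in WT at 16 dpf, which allows a share of up to 12.0% by the same limit of 3 counts. Among the libraries with at least 20 barcodes of the kind, the share was highest in WT at 6 dpf and in bloodless fish, and the gene was not detected in the few barcodes of the kind in WT at 16 dpf.

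Endothelial markers were uneven in the s1pr4-spock3 barcodes. Of 6 measured endothelial genes none was higher in each library, cdh5, which encodes the junction protein VE-cadherin, was at 0 in the kind, and kdrl, a receptor for vascular endothelial growth factor, reached at most 1.80 CPM. The summed endothelial level was higher in 3 of 6 libraries, with 676 CPM in bloodless and 754 in recovered runx1-/-, where the other barcodes had 199 and 90.0 CPM. cldn5b, a tight junction gene, made up much of it, with 391 and 450 CPM in those libraries, and was found in 27 of 139 and 17 of 76 barcodes. In runx1-/- at 10 dpf cldn5b was lower in the kind, at 123 CPM, than in the other barcodes, at 345 CPM. Whether endothelial transcripts play a part in the class II levels was not tested.

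Erythroid genes were lower: 5 of 19 measured genes fell below the other barcodes by the rule, with hbbe1.1, an embryonic beta globin, at a median log2 ratio of -5.66. The thrombocyte sum was lower in 6 of 6 libraries. None of 4 measured macrophage genes was higher in each library, and the levels of mfap4 and grn1 in runx1-/- at 10 dpf came entirely from 1 barcode. ccr9a, a receptor of T cell progenitors, stood at 53.9, 81.2 and 0 CPM in runx1-/- at 10 dpf, bloodless and recovered, against 1709, 1068 and 1189 CPM in WT at 6, 10 and 16 dpf. The progenitor gene meis1b went the other way. It stood at 250, 236 and 276 CPM in those mutants, against 72.9, 46.6 and 7.29 CPM in WT at 6, 10 and 16 dpf. The T lymphoid list, which holds ccr9a, split by genotype in the other barcodes too. Its sum there was 48.0, 111 and 72.9 CPM in those mutants, against 501, 885 and 777 CPM in the same WT libraries. In the kind the sum of the list was 83.4, 119 and 45.9 CPM in those mutants, against 1745, 1105 and 1207 CPM in WT. Whether the ccr9a or the meis1b difference was particular to the kind was not tested.

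The havcr1 barcodes held macrophage genes, and some genes of the neutrophil list with them. They numbered at least 20 in runx1-/- at 10 dpf, bloodless and recovered, and there 371 of 6530 measured genes were higher (5.68%) and 109 lower (1.67%). grn1, a granulin gene, stood at 1054, 3965 and 4337 CPM in those 3 libraries, where the other barcodes had 2.33, 109 and 23.9 CPM. mfap4, a macrophage gene in zebrafish, stood at 965, 1797 and 610 CPM, where the other barcodes had 1.51, 36.4 and 6.85 CPM. lygl1, related to g-type lysozyme, and lgals2a, a galectin, had median log2 ratios of 5.73 and 5.01.

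These levels came from most of the kind in bloodless fish and from few barcodes elsewhere. mfap4 was found in 47 of 61 havcr1 barcodes in bloodless (77.0%), but in 4 of 31 in runx1-/- at 10 dpf (12.9%) and 5 of 27 in recovered (18.5%), where the other barcodes had 3.24%, 0.186% and 0.913%. grn1 was found in 51 of 61, 5 of 31 and 6 of 27 in the same order of libraries. After thinning, at least 2 macrophage markers were found in 86.4% of the kind in bloodless, 16.7% in runx1-/- at 10 dpf and 37.5% in recovered, where the other barcodes had 3.74%, 0.385% and 1.62%. These shares rest on 59, 30 and 16 havcr1 barcodes deep enough to be thinned, with the kind assigned at full depth.

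By list, 6 of 11 measured macrophage genes were higher in each of the 3 libraries, namely mpeg1.1, marco, mfap4, grn1, apoeb and slc7a7. mfap4, with a median of 6.85 CPM in the other barcodes, was measured only through the kind. Only 4 macrophage genes were measured for the ccl19a.1 barcodes and 4 for the s1pr4-spock3 barcodes. Others of the 11 can thus have entered through the havcr1 barcodes alone, so 6 of 11 is not independent of that filter. Over all measured genes 5.68% were higher in this kind. Of 10 measured genes for processing antigen, 6 were higher, the proteases ctss2.1, ctss2.2, ctsla, ctsba, ctsd and lgmn. None of 4 measured class II genes passed that rule, though cd74b stood at 266, 140 and 392 CPM, where the other barcodes had 117, 84.1 and 32.4 CPM. Erythroid genes were lower in 16 of 19 cases.

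Neutrophil list markers were as common as macrophage ones in part of the kind. At least 2 of them were found in 51 of 61 havcr1 barcodes in bloodless (83.6%), the same number as for macrophage markers. After thinning they were found in 52.5% in bloodless, 16.7% in runx1-/- at 10 dpf and 31.3% in recovered, where the other barcodes had 5.73%, 8.47% and 6.87%. Of 11 measured entries of the list 2 were higher in each library, srgn, a proteoglycan of storage granules, and csf3r, the receptor for granulocyte colony-stimulating factor. The granule genes mpx and lyz, in contrast, stood at 2.71 CPM each in bloodless, where the other barcodes had 17.3 and 798 CPM. lyz, the lysozyme gene, came to 99.9% from 1 barcode in runx1-/- at 10 dpf and again in recovered.

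The ccl19a.1 barcodes held germ cell genes. They were set apart by few UMIs of ccl19a.1, with a median of 1 in bloodless, 1 in recovered and 2 in WT at 16 dpf, and 5 in runx1-/- at 10 dpf. Whether ccl19a.1 is a trait of germ cells was not tested. In 4 libraries with at least 20 ccl19a.1 barcodes, 1055 of 8438 measured genes were higher (12.5%) and 66 lower (0.782%), and the median log2 ratio of all measured genes was 0.70. ddx4, which encodes the germ cell helicase Vasa, stood at 2202 CPM in runx1-/- at 10 dpf, 2044 in bloodless, 2107 in recovered and 2015 in WT at 16 dpf, where the other barcodes had 9.99, 365, 104 and 141 CPM. Its levels in the kind hardly differed between libraries, while those of the other barcodes did. piwil1 and piwil2, which act with piRNAs to silence transposons, had median log2 ratios of 3.92 and 3.60, and all 5 germ cell genes of the list were higher in each library.

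ddx4 was found in 4 of 27 ccl19a.1 barcodes in runx1-/- at 10 dpf (14.8%), 110 of 132 in bloodless (83.3%) and 66 of 106 in recovered (62.3%), and in 70 of 73 in WT at 16 dpf (95.9%). The other barcodes had 0.434%, 16.6%, 5.78% and 4.86%. Over the 7 libraries 260 of the 1373 barcodes with at least 2 germ cell markers met the rule (18.9%), so most such barcodes lay outside it. In WT at 16 dpf 11 of the 73 ccl19a.1 barcodes were among the highest doublet scores of the library, and the part of doublets in these levels was not tested. At 16 dpf germ cell markers therefore covered most of the kind, and at 10 dpf few of its barcodes.

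**Figure D4:**
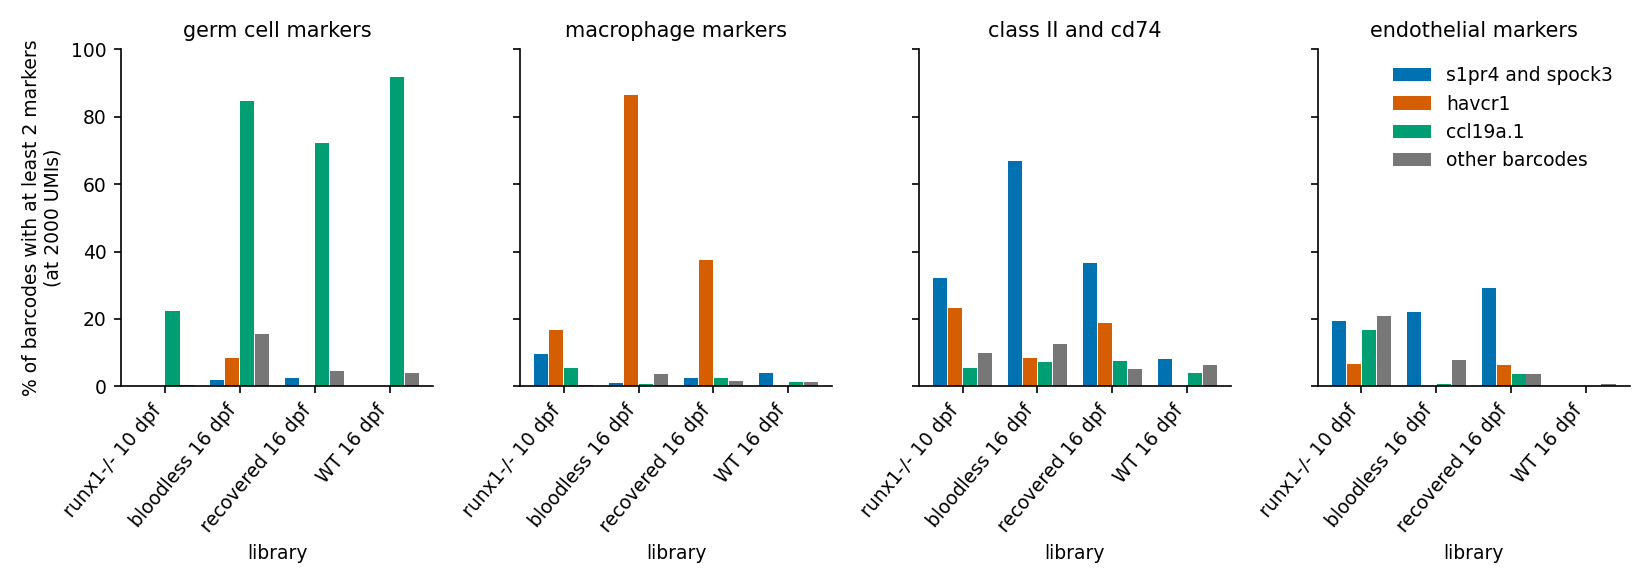
Percent of barcodes with at least 2 markers of germ cells, macrophages, MHC class II or endothelium, after thinning to 2000 UMIs, in 4 libraries, for kinds with at least 20 barcodes and the other barcodes. Germ cell markers were in 84.6% of ccl19a.1 barcodes and macrophage markers in 86.4% of havcr1 barcodes of the bloodless library. The kinds were assigned at full depth.

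ccl19a.1 itself was uneven. It stood at 1156 CPM in the kind in runx1-/- at 10 dpf, 202 in bloodless, 247 in recovered and 84.2 in WT at 16 dpf, and 1 barcode gave 38.3% of its counts in bloodless and 30.8% in WT. Of 11 measured genes of MHC class I presentation 3 were higher in each library, namely psmb8a and psmb9a of the immunoproteasome (median log2 ratios of 2.06 and 1.73) and tapbpl, a peptide editor (1.57). Over all measured genes 12.5% were higher in this kind. The median log2 ratio was 0.95 for the list and 0.70 for all measured genes, so the 3 are not read as a result about the list. isg15, an interferon-induced gene, stood at 157, 414 and 454 CPM in runx1-/- at 10 dpf, bloodless and recovered and at 116 CPM in WT at 16 dpf, where the other barcodes had 27.3, 64.6, 29.3 and 6.24 CPM. cd74b was not raised, with a median log2 ratio of -0.36. Erythroid genes were lower in 12 of 19 cases and neutrophil genes in 5 of 9.

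**Figure D5:**
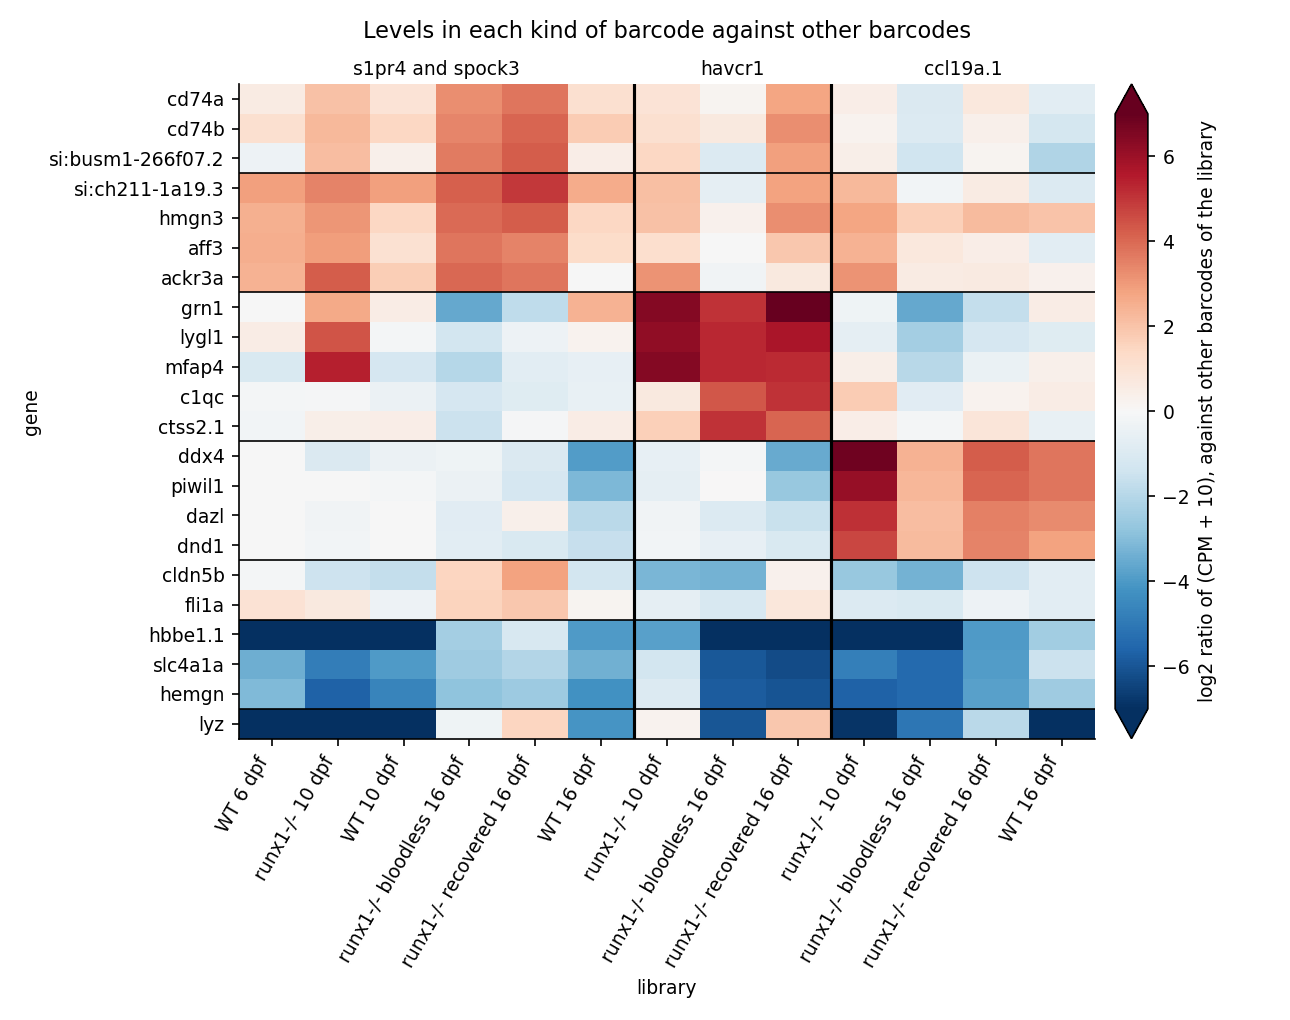
Log2 ratio of each kind to the other barcodes of its library (10 CPM added to both) for the genes named, in libraries with at least 20 barcodes of the kind. grn1 and mfap4 were highest in the havcr1 columns (median log2 ratios of 6.43 and 5.28), ddx4 and piwil1 in the ccl19a.1 columns (3.98 and 3.92).

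Some genes ran across the kinds. hmgn3 was found in 28 of 37 s1pr4-spock3, 21 of 31 havcr1 and 21 of 27 ccl19a.1 barcodes in runx1-/- at 10 dpf, where the other barcodes had 38.9% and the deeper haemoglobin-rich ones 37.4%. In bloodless it was found in 114 of 139, 27 of 61 and 123 of 132 barcodes, and in recovered in 59 of 76, 18 of 27 and 85 of 106. ackr3a was found in 11, 9 and 6 barcodes of the kinds in runx1-/- at 10 dpf, where the other barcodes had 1.36%. At 16 dpf it was found in 0 of 61 havcr1 barcodes in bloodless and 1 of 27 in recovered, and in 15 of 132 and 11 of 106 ccl19a.1 barcodes. hmgn3 was thus found in all 3 kinds at both ages, while ackr3a in havcr1 barcodes was seen mainly at 10 dpf. For 16 dpf no hmgn3 share of the other barcodes is given and the kinds differed in depth. No excess of hmgn3 barcodes is therefore read from the 16 dpf counts. The difference between ages was not tested, since each age rests on 1 or 2 mutant libraries.

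Taken over all 806 barcodes, few genes differed in the same way in each of 6 libraries. Of 7191 measured genes 5 were higher (0.0695%) and 31 lower (0.431%). hmgn3 led the higher ones, with a median log2 ratio of 2.40, followed by si:ch211-71m22.1 (1.87) and gstr, related to glutathione transferases (1.76). The lower ones were led by stc1l, a stanniocalcin-like gene (-7.09), and included the red cell genes hbbe1.1 (-5.09), slc4a1a, an anion exchanger (-3.53), and hemgn (-3.37). Of 19 measured erythroid genes 9 were lower.

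Genotype was tested within the barcodes that met the rule, on counts summed per library, with age in the model. The quasi-likelihood test of edgeR, adjusted after Benjamini and Hochberg, called 1 of 7463 genes (0.0134%), and 292 had an unadjusted p under 0.05. The gene was si:ch211-156j16.1, with a log2 fold change of 6.49 (SE 0.648, adjusted p = 0.0495, higher in 4 of 4 mutant libraries). Its counts were 1, 91, 246 and 102 in runx1-/- at 6 dpf, 10 dpf, bloodless and recovered, against 0, 0 and 2 in WT at 6, 10 and 16 dpf. Over 12 alternative settings its adjusted p by edgeR or DESeq2 ran from 1.88e-09 to 0.260 and was under 0.05 in 8. An age without both genotypes left the fit as a whole. Leaving out either library of 6 dpf was thus the same fit, as was leaving out either of 10 dpf. These settings are therefore not all distinct. Without the 10 dpf libraries no gene was called. In the other barcodes si:ch211-156j16.1 stood at 55.2, 87.5, 30.7 and 11.9 CPM in the same mutant libraries, against 1.12, 6.15 and 4.99 CPM in WT. It was thus higher in mutants outside the rule too. The number of genes called was 46 with DESeq2. By edgeR it was 210 without WT at 16 dpf, when 4 libraries remained, those of 6 and 10 dpf.

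The other genes described above did not pass. cd74b had a log2 fold change of 0.31 (SE 0.686, edgeR adjusted p = 1) and mhc2daa, listed as si:busm1-266f07.2, one of 3.89 (SE 0.593, edgeR adjusted p = 0.127, higher in 3 of 4 mutant libraries). The kinds took different shares of the barcodes in mutants and WT, so a change within a kind and a change in the mix of kinds cannot be told apart here.

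A second model, with each library as a block, asked whether the ratio of the barcodes that met the rule to the others differed by genotype. edgeR called 175 of 15084 genes (1.16%), of which 156 had a higher ratio in runx1-/- than in WT (1.03%) and 19 a lower one (0.126%), and 104 had 1 sign in each mutant library. Those signs, here and below, were taken with 10 CPM added to both sides of the ratio. A library with no count in the barcodes that met the rule could therefore still give a sign. A higher ratio need not mean more than in the other barcodes, since it can also be a smaller shortfall. DESeq2 called 22 genes. By edgeR 26 were called without WT at 16 dpf, when 4 libraries remained, and 470 without the 6 dpf libraries, when 5 remained.

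Neutrophil genes made up the largest group among the lists, with 8 of 11 tested entries called, all with a higher ratio in runx1-/-. Of them, lyz, mpx, lect2l and cpa5 were lower in the barcodes that met the rule than in the others in each library, and srgn was higher in the 4 mutant libraries only. lyz stood at 0 CPM in runx1-/- at 6 dpf, 2630 at 10 dpf, 93.6 in bloodless and 1822 in recovered, where the other barcodes had 1369, 5353, 798 and 2314 CPM. In WT it stood between 0 and 94.0 CPM over the 3 ages, where the other barcodes had 3077, 3808 and 11991 CPM at 6, 10 and 16 dpf. The log2 difference was 5.40 for lyz (SE 0.805, edgeR adjusted p = 3.99e-08, 4 of 4 libraries), and lyz rested largely on single barcodes in runx1-/- at 10 dpf and in recovered.

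Of 12 tested macrophage genes 2 were called, grn1 at 3.51 (edgeR adjusted p = 3.48e-05) and mfap4 at 3.29 (edgeR adjusted p = 0.000569), both in the same direction in 3 of 4 libraries. mpeg1.1, also a macrophage gene, had -0.07 with an edgeR adjusted p of 1. Of 5 tested genes of the class II list 1 was called, the class II beta chain gene mhc2b at 4.13 (edgeR adjusted p = 0.0247, 4 of 4 libraries). It had 1, 24, 141 and 31 counts in runx1-/- at 6 dpf, 10 dpf, bloodless and recovered, against 0, 0 and 2 in WT at 6, 10 and 16 dpf. Its level was 8.36, 35.5, 32.8 and 15.2 CPM in the mutant libraries, where the other barcodes had 0.398, 9.93, 25.9 and 6.66 CPM. In WT at 16 dpf it was 0.582 CPM, where the other barcodes had 3.88 CPM. mhc2daa, listed as si:busm1-266f07.2 and outside the list, had 3.02 (SE 0.710, edgeR adjusted p = 0.00376, 3 of 4 libraries), while cd74b had 0.59 and an edgeR adjusted p of 1. Of 5 germ cell and 18 endothelial genes tested none was called, and ddx4 had 1.82 with an edgeR adjusted p of 0.326. The havcr1 barcodes were 61 of 332 in bloodless, against 5 of 103 in WT at 16 dpf, and their part in these calls was not tested. In this model too, a change within a kind and a change in the mix of kinds cannot be told apart. The 4 genes of the rule were chosen in these same libraries, and the adjusted p values take no account of that choice.

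The largest differences by the naming rule came with few counts in the barcodes that met it. BX908782.2, an unannotated entry, had 3, 229, 282 and 90 counts in them in runx1-/- at 6 dpf, 10 dpf, bloodless and recovered, against 0, 0 and 9 in WT at 6, 10 and 16 dpf (log2 difference 6.86). Its level was 25.1, 338, 65.7 and 44.1 CPM in the mutant libraries, where the other barcodes had 0.597, 34.2, 61.3 and 76.1 CPM. It was 2.62 CPM in WT at 16 dpf, where the other barcodes had 185 CPM.

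abcc13, an ABC transporter, stood at 0, 573, 6.29 and 161 CPM in the same mutant libraries, where the other barcodes had 20.9, 1169, 36.3 and 208 CPM (5.98). In WT it stood at no more than 7.28 CPM, where the other barcodes had 302, 862 and 765 CPM at 6, 10 and 16 dpf. abcc13 was thus lower in the barcodes that met the rule in each library, and by more in WT than in runx1-/- at 10 dpf and at 16 dpf. BX908782.2 and abcc13 stayed under an adjusted p of 0.05 by edgeR or DESeq2 in 14 of 14 alternative settings, with highest adjusted p of 0.0290 and 0.00960. Here and for the genes below, the settings are not all distinct. Leaving out either library of 6 dpf was the same fit, as was leaving out either of 10 dpf.

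hamp, which encodes the iron hormone hepcidin, stood at 0, 23.6, 17.7 and 26.5 CPM in the same mutant libraries, where the other barcodes had 0, 0, 3.87 and 0.380 CPM (6.46). A single count stood behind it in the barcodes that met the rule in WT at 16 dpf. It was under an adjusted p of 0.05 in 8 of 13 alternatives, with an adjusted p of up to 0.764. faslg, the Fas ligand, stood at 0, 8.86, 13.04 and 8.82 CPM in the mutant libraries, where the other barcodes had 0.199, 0.768, 1.31 and 0.792 CPM (5.52). Its level in WT at 16 dpf was 0.873 CPM from 3 counts, where the other barcodes had 2.24 CPM. It was under 0.05 in 13 of 14 alternatives, with an adjusted p of up to 1.

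Among the genes with a lower ratio in runx1-/- were the haemoglobin genes hbaa2 (-6.17) and hbba2 (-5.95). hbba2 stood at 22.2, 39.4 and 55.9 CPM in runx1-/- at 10 dpf, bloodless and recovered, where the other barcodes had 251, 1206 and 1592 CPM. Its level in WT at 16 dpf was 11.1 CPM, where the other barcodes had 3.26 CPM. hbba2 was therefore lower in the barcodes that met the rule in these mutant libraries and not in WT at 16 dpf, where it was scarce in both. The summed erythroid list was lower in WT at 16 dpf too, at 407 CPM, where the other barcodes had 3182 CPM.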

How the data were processed

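Cells sorted for dim cd41:GFP were profiled with the 10x Genomics Chromium 3' v3 kit, per the labels. The deposited matrices hold UMI counts per gene and barcode; the submitters' processing notes name Cell Ranger 2.0.2 and GRCz10, and some file headers give software 3.1.0. From 26573 genes, 24368 matched the table of gene names. Barcodes needed 500 UMIs, 200 genes and at most 20% mitochondrial UMIs. Doublets were left in, and the highest Scrublet scores (scanpy 1.11.5, 0.8% per 1000 barcodes) were left out as an alternative. Counts were summed per library and class. A gene was measured with a median of 10 CPM in either class. Genotype was tested with edgeR 4.0.16 (R 4.3.3), with DESeq2 1.42.0 as alternative. On simulated data edgeR recovered 77.6% of genes changed by a log2 fold of 2 within members of the rule (7818 genes). For the genotype difference in the ratio to the other barcodes it recovered 13.4% (12012 genes). The simulated counts had 1 fixed spread for every gene, no age effect and no mix of kinds, and only well-counted genes were changed. These shares therefore need not hold for the measured counts. Named genes were the 15 highest and 10 lowest by median log2 ratio with at least 50 CPM, the 10 largest rises and falls in each test, and list genes; others are marked as picked later. The barcodes, kinds and lists were chosen with earlier results of these data known. Each group is 1 library, so no spread within a group was measured. The p-values rest on the spread left after each model was fitted, which edgeR shares among genes.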

Additional observations from a re-analysis of the deposited data

Results flagged for a closer look

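At 2.5 dpf, outside the comparisons above, 16 runx1-/- barcodes met the rule (1.36%), against 44 in WT (2.0%). Of the 16, 15 were havcr1 and 1 ccl19a.1 barcodes; of the 44, 27 were s1pr4-spock3 and 17 havcr1 barcodes. cd74b and ddx4 were at 0 in both. mfap4 stood at 2162 CPM in the havcr1 barcodes of runx1-/- and 1808 CPM in those of WT, where the other barcodes had 148 and 99.5 CPM. The cause of these differences was not tested.

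The ratio of barcodes that met the rule to the others differed by genotype for 175 genes in edgeR. The log2 difference was 12.50 for the entry with the ID ENSDARG00000105232, 7.34 for si:zfos-2330d3.1, 6.86 for BX908782.2, 6.64 for nkx2.3 and 6.46 for hamp. It was 6.03 for CELA1 (1 of many), 5.98 for abcc13, 5.82 for si:ch211-163c2.2, 5.76 for CR388164.3 and 5.52 for faslg. On the other side it was -6.45 for coch, -6.19 for sfrp5, -6.17 for hbaa2, -5.95 for hbba2 and -4.79 for KCNIP4. It was -4.68 for hbae3, -4.12 for kank4, -3.22 for si:ch1073-184j22.1, and -3.11 and -2.83 for 2 entries named hbae1.1. Of these 20, 1 had no count in WT barcodes that met the rule and 5 had under 3, so their fitted size depends on the prior count. Counts were also few in the runx1-/- barcodes that met the rule for coch (1), sfrp5 (2), kank4 (6), si:zfos-2330d3.1 (7) and CR388164.3 (9). For nkx2.3 and CELA1 (1 of many) the other barcodes held 71 and 211 counts in runx1-/-, against 2781 and 7487 in WT. The globin entries are near-identical copies among which reads can be split.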

How the results depend on the processing

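Settings were changed 1 at a time. The runx1-/- to WT ratio of shares kept its direction throughout. Its mean on the log2 scale was 3.77 with at least 3 of the 4 genes and 3.42 after thinning. With at least 3 genes WT held 0, 0 and 4 barcodes at 6, 10 and 16 dpf, and runx1-/- at 6 dpf held 1. The value of 3.77 therefore leaned on the 0.5 barcodes added to each count. Genes called by genotype within the barcodes that met the rule were 46 with DESeq2, 205 with no filter on low counts, 169 with at least 1000 UMIs, 0 with at most 10% mitochondrial UMIs by edgeR (292 at an unadjusted p under 0.05), 9 without the highest doublet scores, and 0 to 210 when 1 library was left out. The count was 210 without WT at 16 dpf and 0 without either 10 dpf library (325 unadjusted). In both genotype tests an age without both genotypes left the fit as a whole. Leaving out WT at 16 dpf thus left 4 libraries, and leaving out either library of 6 or 10 dpf left 5. With at least 1000 UMIs runx1-/- at 6 dpf held 9 barcodes that met the rule, under the minimum of 10. The 6 dpf libraries therefore left the fits of that setting too. Without them alone the counts were 170 within these barcodes and 470 for the ratio. Genes whose ratio to the other barcodes differed by genotype were 22 with DESeq2, 25 without the class-by-age term, 463 with at least 1000 UMIs, and 26 (without WT at 16 dpf) to 470 (without either 6 dpf library) when a library was left out. Over all barcodes that met the rule, genes higher and lower in each library were 193 and 154 with at least 3 genes, 214 and 506 after thinning (both over 3 libraries), and 49 and 69 with a pseudocount of 1 CPM. Without the highest doublet scores 9 were higher, over 5 libraries. WT at 10 dpf then held 19 barcodes that met the rule, under the 20 needed, and left the count. Leaving out a library gave 5 to 18 higher and 31 to 52 lower, the most without WT at 16 dpf. The genotype tests could not be run after thinning or with at least 3 genes. The cause of these moves was not tested, other than fewer libraries having to share a direction. No paired analysis was possible because each group is 1 library and the labels carry no replicate numbers that pair libraries; the ratio to the other barcodes was already fitted with each library as a block. Depth limits the rule, since a gene at 1 UMI in a deep barcode can be missed in a shallow one.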
